A study of Mus musculus with 30 samples.

Results

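Hmgcs1, Idi1, Fdps, Sqle, Lss, Cyp51 and Insig1 are cholesterol genes controlled by the transcription factor SREBP2. The 7 genes were taken by symbol from the 49315 genes of the count table, where each matched 1 row, and all 7 passed the filter on low counts that left 16486 genes for testing. They were followed through the hippocampi of 30 mice, 13 TIMP2 KO mice (7 females and 6 males) and 17 WT mice (7 females and 10 males). TIMP2 is a secreted inhibitor of metalloproteinases. The TIMP2 KO line came from the Jackson Laboratory, the WT mice were littermate controls, and the labels give the strain C57BL/6J for both genotypes and neither an age nor a treatment. Timp2 heterozygous mice were not used. RNA was read from whole hippocampus, so a lower level in bulk tissue can be fewer cells of a type or less RNA per cell, and these cannot be told apart.

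Cholesterol is built from acetyl-CoA through mevalonate, isoprenoid units, squalene and lanosterol. When sterol in the membrane of the endoplasmic reticulum falls, the escort protein SCAP carries SREBP2 to the Golgi, where proteases release its transcription factor domain, and the genes of the pathway are transcribed together. When sterol is high, INSIG proteins hold SCAP and SREBP2 in the endoplasmic reticulum. The blood-brain barrier keeps plasma cholesterol out of the brain, so neurons, astrocytes and myelinating oligodendrocytes depend on sterol made within the tissue.

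The 7 genes act at different steps. Hmgcs1 encodes the cytosolic HMG-CoA synthase, an early step on the way to mevalonate. Idi1 encodes isopentenyl diphosphate isomerase and Fdps farnesyl diphosphate synthase, which build the isoprenoid chain. Sqle encodes squalene epoxidase, Lss encodes lanosterol synthase, which closes the sterol rings, and Cyp51 encodes lanosterol demethylase. Insig1 is the regulator of the set, encoding a protein that retains SCAP, and it is itself a target of SREBP2.

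In GRCm38, with genes as annotated in GENCODE M21, Hmgcs1 (ENSMUSG00000093930) lies on the plus strand of chromosome 13 from 119690379 to 119708260, and Idi1 (ENSMUSG00000058258) on the plus strand of the same chromosome from 8885501 to 8892451. Insig1 (ENSMUSG00000045294) lies on the plus strand of chromosome 5 from 28071363 to 28078662, and Cyp51 (ENSMUSG00000001467) on the minus strand of chromosome 5 from 4081145 to 4104746. Sqle (ENSMUSG00000022351) lies on the plus strand of chromosome 15 from 59315077 to 59331192, Fdps (ENSMUSG00000059743) on the minus strand of chromosome 3 from 89093588 to 89101959, and Lss (ENSMUSG00000033105) on the plus strand of chromosome 10 from 76531588 to 76557138. None of the 7 is on chromosome 11, where Timp2 lies. Exons of Cyp51 overlap exons of Akap9 on the opposite strand, which had a median of 1861 counts, and the strand setting of the counting is not given in the sources used here, so some reads of the pair could be assigned to either gene.

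The start regions of these genes are shown because the members moved together across mice to different degrees. RefSeq promoter windows in GRCm38.p6, which run from 250 bases before to 50 bases after the start, were held for 5 of the 7 genes (all but Sqle and Fdps). Those of Hmgcs1 (chr13:119690101-119690400, plus strand), Cyp51 (chr5:4104648-4104947, minus strand) and Insig1 (chr5:28071162-28071461, plus strand) are given for members that covaried, and that of Lss (chr10:76531355-76531654, plus strand) for the member of which no pair passed the test. Each is written 5′ to 3′ on the strand of its gene, and capitals mark matches, on either strand, to the sterol regulatory element pattern TCACNCCAC, to the NF-Y box CCAAT and to the GC box GGGCGG.
Hmgcs1: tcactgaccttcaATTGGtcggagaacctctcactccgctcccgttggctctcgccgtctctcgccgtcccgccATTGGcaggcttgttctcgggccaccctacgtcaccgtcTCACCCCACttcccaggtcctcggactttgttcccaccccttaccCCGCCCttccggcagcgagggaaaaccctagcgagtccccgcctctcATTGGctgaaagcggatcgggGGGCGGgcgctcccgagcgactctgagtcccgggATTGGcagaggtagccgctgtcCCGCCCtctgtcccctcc
Cyp51: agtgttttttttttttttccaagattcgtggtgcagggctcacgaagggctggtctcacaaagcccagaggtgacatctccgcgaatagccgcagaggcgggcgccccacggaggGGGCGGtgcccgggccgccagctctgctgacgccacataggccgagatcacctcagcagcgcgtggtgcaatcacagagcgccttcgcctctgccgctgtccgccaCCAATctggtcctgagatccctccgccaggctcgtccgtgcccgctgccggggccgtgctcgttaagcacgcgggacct
Insig1: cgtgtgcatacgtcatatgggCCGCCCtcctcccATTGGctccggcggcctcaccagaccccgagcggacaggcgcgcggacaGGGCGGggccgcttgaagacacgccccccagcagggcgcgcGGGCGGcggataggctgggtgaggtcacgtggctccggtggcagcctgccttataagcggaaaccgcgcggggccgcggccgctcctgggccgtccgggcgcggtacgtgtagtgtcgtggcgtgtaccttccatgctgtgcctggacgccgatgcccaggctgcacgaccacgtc
Lss: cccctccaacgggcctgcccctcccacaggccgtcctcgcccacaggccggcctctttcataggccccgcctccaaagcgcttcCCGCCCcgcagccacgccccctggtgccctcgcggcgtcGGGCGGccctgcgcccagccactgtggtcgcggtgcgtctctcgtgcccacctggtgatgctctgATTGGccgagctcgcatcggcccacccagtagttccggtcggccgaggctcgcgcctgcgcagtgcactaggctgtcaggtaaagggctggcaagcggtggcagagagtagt

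Of the 5 windows, that of Hmgcs1 held a match to TCACNCCAC, read as TCACCCCAC, with its first base at position -137 from the start. This pattern was present in 1.24% of all 32851 promoter windows of that length and in no window of the 12 genes matched among 15 other cholesterol synthesis enzymes. All 5 windows, Lss included, held CCAAT and GGGCGG, which were present in 37.4% and 35.7% of all windows. The Hmgcs1 window held 4 matches to CCAAT and 3 to GGGCGG, and the Lss window held 1 and 2. The windows of Idi1, Insig1 and Cyp51 held 2 and 1, 1 and 3, and 1 and 1. The Lss counts thus lay within the range of the covarying members. No match in these windows overlapped a match to another pattern. A match is a description of the letters in the window, and binding was not measured. No other spelling of the sterol regulatory element was searched for, so a window without a match cannot be said to lack such an element.

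Totals per mouse ranged from 18345517 to 41081083 counts in TIMP2 KO and from 19445246 to 32098386 in WT hippocampi. As a check of the labels, Timp2 lay between 130 and 171 CPM (counts scaled to library size) in the 13 TIMP2 KO mice and between 256 and 380 CPM in the 17 WT mice, so the genotypes did not overlap, although reads were still counted on the gene in KO mice. In TIMP2 KO vs. WT hippocampi, 829 of 16486 genes (5.03%) passed an unadjusted p under 0.05 and 9 (0.0546%) an adjusted p under 0.05, by quasi-likelihood tests in edgeR adjusted after Benjamini and Hochberg over all genes tested. The mean log2 CPM of oligodendrocyte markers lay between 6.80 and 7.58 in KO and between 6.80 and 7.49 in WT mice, and that of neuron markers between 9.40 and 9.53 and between 9.38 and 9.55. Of the choroid plexus markers, 4 of 6 were too low to test.

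Compared per length, Hmgcs1 had the highest level of the 7 and Lss the lowest. Over the union of annotated exons, Hmgcs1 had a median of 55.7 RPKM (reads scaled to library size and to length in kilobases), followed by Insig1 at 23.1, Cyp51 at 15.1, Sqle at 12.1, Fdps at 6.00, Idi1 at 5.77 and Lss at 2.70. The ranges over mice overlapped for Cyp51 and Sqle, although Cyp51 was above Sqle in 30 of 30 mice, and for Fdps and Idi1, where Fdps was above Idi1 in 20 of 30. The middle of this order depended on the length used. Per base of the longest protein-coding transcript in the GENCODE basic set, Sqle was at 24.3 RPKM and Fdps at 18.3, both above Cyp51 at 16.9, while Hmgcs1 at 73.8 stayed highest in 30 of 30 mice and Lss at 6.25 lay below Idi1 at 6.68 in 24 of 30. The difference is greatest for Lss and Fdps, whose exon unions span 10787 and 4208 bases against transcripts of 4667 and 1382 bases.

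The question of the genotype comparison is whether loss of TIMP2 moved the cholesterol genes of the hippocampus. None of the 7 passed in TIMP2 KO vs. WT hippocampi, at an adjusted or at an unadjusted p under 0.05, against 5.03% of all genes tested at the latter (2.47% higher and 2.56% lower in KO mice). For the enzymes at the start of the pathway, Hmgcs1 ranged from 226 to 287 CPM with a median of 263 in TIMP2 KO mice, and in WT mice from 241 to 307 CPM with a median of 255. The ranges overlapped widely, and the log2 fold change was -0.01 with a standard error of 0.04 (edgeR, adjusted p = 0.998). Expressed as a difference in level, the 95% confidence interval of the Hmgcs1 change ran from -6.17% to 4.49%.

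Idi1, the most variable member, ranged from 17.1 to 24.8 CPM with a median of 20.3 in TIMP2 KO mice. In WT mice it ranged from 17.1 to 26.3 CPM with a median of 20.2. Its lowest values in both genotypes were thus alike, and its log2 fold change was -0.03 with a standard error of 0.06. Fdps ranged from 22.3 to 28.5 CPM with a median of 25.9 in TIMP2 KO and from 23.1 to 27.1 CPM with a median of 24.9 in WT mice. It was the only member with a fold change above 0, at 0.03 on the log2 scale with a standard error of 0.03, and its KO mice held both the highest and the lowest value.

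Among the enzymes of the sterol part of the pathway, Sqle ranged from 57.7 to 73.9 CPM with a median of 66.6 in TIMP2 KO and from 60.8 to 76.2 CPM with a median of 68.2 in WT mice. Lss ranged from 26.1 to 32.8 CPM with a median of 29.3 in TIMP2 KO and from 26.3 to 33.7 CPM with a median of 28.9 in WT mice. Cyp51 ranged from 60.2 to 73.4 CPM with a median of 66.3 in TIMP2 KO and from 63.0 to 71.6 CPM with a median of 66.5 in WT mice. Values of both genotypes overlapped over most of their ranges in all 3 genes, and for Cyp51 the WT values lay within those of the KO mice. The log2 fold changes were -0.02 for Sqle, -0.01 for Lss and -0.01 for Cyp51, with standard errors of 0.03, 0.04 and 0.03.

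Insig1, the regulator, ranged from 61.9 to 83.4 CPM with a median of 69.6 in TIMP2 KO mice and from 65.3 to 87.4 CPM with a median of 71.3 in WT mice. Its log2 fold change of -0.04, with a standard error of 0.04 and an adjusted p of 0.998 in edgeR, was the furthest from 0 among the 7. Across the 7 genes, 6 fold changes were below 0, the median was -0.01 beside a median of 0.00 over all genes tested, and the unadjusted p-values lay between 0.310 and 0.864. Since several of the genes covaried across mice, their signs are not independent. Of the 95% confidence intervals, that of Cyp51 was the narrowest, from -4.62% to 2.95%, and that of Idi1 the widest, from -9.37% to 5.88%. In 0 of the 7 genes were the 2 genotypes apart without overlap, against 0.0121% of all genes tested.

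**Figure D1:**
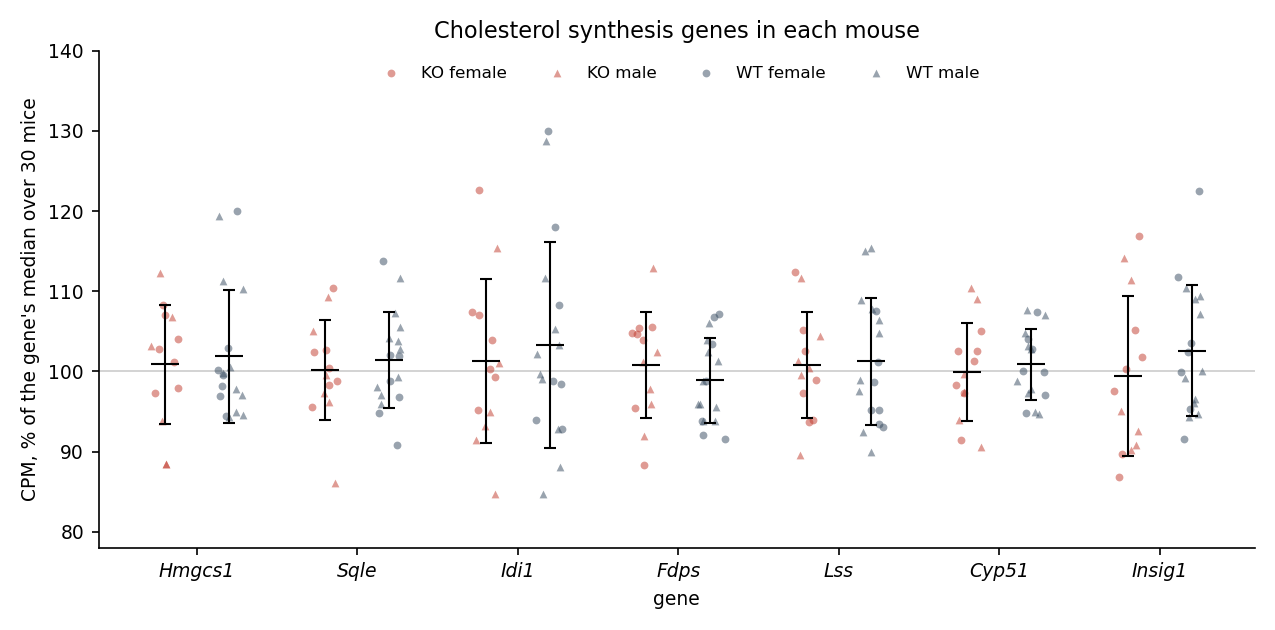
Each point is a mouse, and the vertical axis is its CPM as a percentage of the gene's median over all 30 mice. Horizontal bars and whiskers give the mean and SD of 13 TIMP2 KO (red) and 17 WT (grey) mice, circles are females and triangles males. The genotypes overlap in every gene, and Idi1 and Insig1 have the widest spread.

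**Figure D2:**
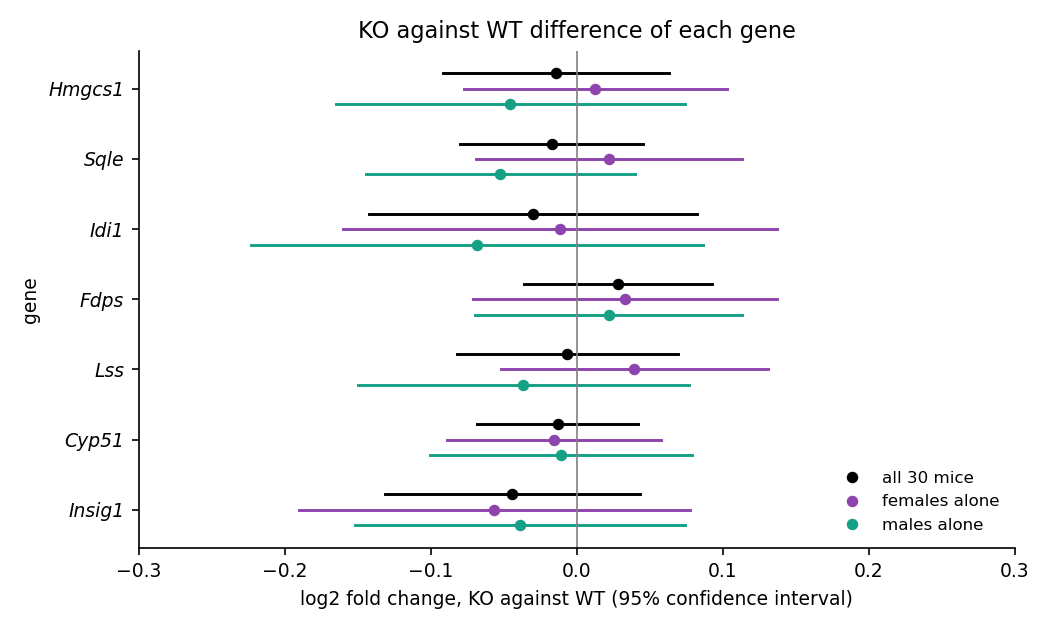
Points give the log2 fold change of TIMP2 KO vs. WT for each gene and lines its 95% confidence interval from edgeR's quasi-likelihood fit, for all 30 mice, 14 females alone and 16 males alone. Every interval includes 0.

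The sexes were then compared, since both were sequenced in each genotype. The interaction of sex and genotype had an unadjusted p under 0.05 for 0 of the 7 genes, against 2.57% of all genes tested, and the p-values lay between 0.249 and 0.928. With females alone, the fold changes were 0.01 for Hmgcs1, 0.02 for Sqle and 0.04 for Lss on the log2 scale, and with males alone they were -0.05, -0.05 and -0.04, but the interaction did not pass for any of the 3. Females against males with genotype held, 0 of the 7 genes passed an unadjusted p under 0.05, against 9.77% of all genes tested, while 0.218% of all genes passed an adjusted p under 0.05. Idi1 had the largest estimate, a log2 difference of 0.09 towards females with a standard error of 0.05 (edgeR, unadjusted p = 0.112). Idi1 ranged from 18.8 to 26.3 CPM in the 14 females and from 17.1 to 26.0 CPM in the 16 males.

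The other genes of sterol metabolism were tested in the same fit. Of 15 other cholesterol synthesis enzymes, 1 passed an unadjusted p under 0.05 in TIMP2 KO vs. WT hippocampi, against 5.03% of all genes tested. This was Dhcr7, which encodes the reductase of the last step to cholesterol in one branch, at 28.3 ± 1.45 CPM (SD, n = 13) in KO and 27.0 ± 1.32 CPM (SD, n = 17) in WT mice. Its log2 fold change was 0.07 with a standard error of 0.03 (edgeR, adjusted p = 0.945). None of 6 genes of SREBP processing passed, among them Srebf2, which encodes SREBP2, at 210 ± 9.99 CPM (SD, n = 13) against 210 ± 9.36 (SD, n = 17), and Insig2 at 61.0 ± 3.94 CPM (SD, n = 13) against 59.8 ± 2.49 (SD, n = 17).

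None of the 6 tested genes of cholesterol uptake and transfer passed. Of 9 tested genes of cholesterol export and turnover, 1 passed, Nr1h2, which encodes the sterol receptor LXR-beta, with a log2 fold change of 0.06 and a standard error of 0.02 (edgeR, adjusted p = 0.945). None of 10 genes of fatty acid synthesis passed. The medians of these 5 lists lay between -0.0045 and 0.01 on the log2 scale. Among the marker lists, Gfap of astrocytes and Clic6 of choroid plexus had higher and Slco1a4 of endothelium and Prox1 of hippocampal neurons lower levels in KO mice at an unadjusted p under 0.05, with adjusted p of 0.905, 0.578, 0.932 and 0.850 in the same fit. Of the 7 astrocyte markers, 2 had fold changes above and 5 below 0 (median -0.02 on the log2 scale), and of 6 hippocampal neuron markers 3 lay above and 3 below (median 0.02). All 5 endothelial markers lay below 0 (median -0.02), and both choroid plexus markers tested lay above. All 9 oligodendrocyte markers had fold changes above 0, at 0.03 to 0.11 on the log2 scale, and none passed. Beside these counts of the sterol and marker lists, 5.03% of all genes tested had an unadjusted p under 0.05. The part of tissue makeup in the values of the 7 genes was not tested beyond the correlations given with the marker lists. The log2 fold changes of Gfap, Clic6, Slco1a4 and Prox1 were 0.09, 1.52, -0.10 and -0.16, and Clic6 spanned 0.287 to 12.2 CPM in KO and 0.201 to 1.72 CPM in WT mice.

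While no member passed between genotypes, the cholesterol genes moved with each other from mouse to mouse. Of the 21 pairs among the 7 genes, 20 had a positive Pearson correlation of log2 CPM over the 30 mice, with a median r of 0.442, and 12 had an adjusted p under 0.05 by a permutation test with 100000 resamples and Benjamini-Hochberg adjustment over the 21 pairs. By Spearman's rank correlation 10 pairs passed, all 10 among those 12. Hmgcs1, Cyp51, Sqle, Idi1 and Insig1 formed 10 pairs that all passed, with r between 0.421 and 0.750. Fdps passed with Sqle and Insig1 alone, and Lss with none. As background, the median r of each member with all other genes tested lay between -0.0086 and 0.0014, and its 99th percentile between 0.438 for Cyp51 and 0.573 for Lss. Of the 12 pairs, Hmgcs1 and Insig1 (0.442) and Idi1 and Insig1 (0.421) lay below the 99th percentile of both their genes, which was 0.443 for Hmgcs1, 0.477 for Insig1 and 0.481 for Idi1. Fdps and Insig1 (0.492) lay below that of Fdps (0.514), and Idi1 and Cyp51 (0.475) below that of Idi1, each above that of its other gene. The study's methods name the date of isolation or harvest as a source of variation that its network analysis adjusted for. The labels give no such date, and its part in the covariation was not tested.

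**Figure D3:**
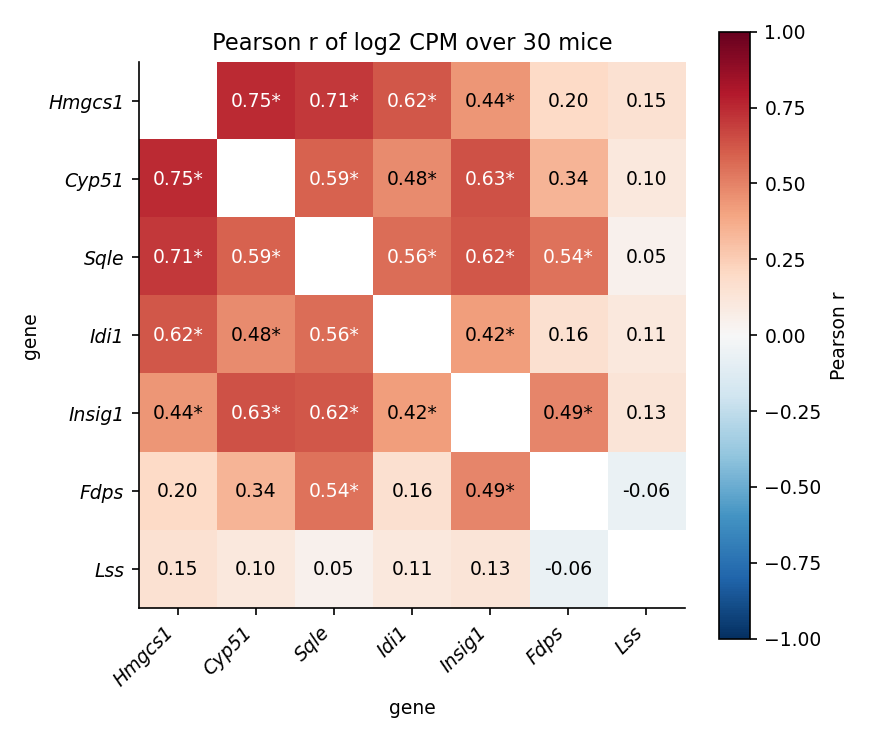
Pearson r of log2 CPM over 30 mice for each pair of genes, with red for positive and blue for negative values and an asterisk where the adjusted permutation p over 21 pairs is under 0.05. The first 5 genes form a block of 10 pairs between 0.421 and 0.750, and the row of Lss lies between -0.063 and 0.153.

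The closest pair was Hmgcs1 and Cyp51, an early and a late enzyme of the pathway, with r = 0.750 (adjusted p = 0.000105) and rho = 0.720 (adjusted p = 0.00021), both from the permutation test over 30 mice, and its unadjusted p of 1e-05 for r was the smallest that 100000 resamples can give. Leaving out the 2 mice furthest from the median of Hmgcs1 gave r = 0.722. Within genotypes r was 0.802 in the 13 TIMP2 KO mice and 0.721 in the 17 WT mice, and within sexes it was 0.578 in females and 0.834 in males. The relation therefore had the same sign in each genotype and each sex. Of all 16485 other genes tested, Hmgcs1 was the gene most highly correlated with Cyp51.

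Hmgcs1 and Sqle had r = 0.705 (adjusted p = 0.000105) and rho = 0.636 (adjusted p = 0.00231) by the permutation test, and r = 0.579 without the 2 mice furthest from the median of Hmgcs1. It was 0.623 in TIMP2 KO and 0.770 in WT mice. Cyp51 and Insig1 had r = 0.635 (adjusted p = 0.00109) and rho = 0.600 (adjusted p = 0.00326) by the permutation test, and r = 0.565 without 2 mice. For this pair r was 0.799 in TIMP2 KO and 0.411 in WT mice, and whether the genotypes differ in r was not tested. Sqle and Insig1 had r = 0.623 and Hmgcs1 and Idi1 r = 0.620, both with an adjusted p of 0.00109 by the permutation test. In rank correlation Sqle and Insig1 had rho = 0.538 (adjusted p = 0.00837 by the permutation test) and r = 0.508 without 2 mice, and Hmgcs1 and Idi1 had rho = 0.509 (adjusted p = 0.0118) and r = 0.407.

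The weaker of the 12 pairs rested in part on the mice at the ends. Without the 2 mice furthest from the median of the first gene of each pair, 7 of the 21 pairs passed, all 7 among the 12, and the median r was 0.297. Hmgcs1 and Insig1 fell from r = 0.442 to 0.254 and Idi1 and Insig1 from 0.421 to 0.229, and neither passed. Leaving out 1 mouse at a time, 10 to 13 pairs passed. The single mouse whose removal lowered r most in both of these pairs was WT replicate 2, a female. Without it r was 0.319 for Hmgcs1 and Insig1 (adjusted p = 0.176 by the permutation test) and 0.296 for Idi1 and Insig1 (adjusted p = 0.193). Without that mouse 10 pairs passed and the median r of the 21 pairs was 0.319 in place of 0.442. Hmgcs1 and Insig1 also missed the threshold without KO replicate 5, 9 or 10, and Idi1 and Insig1 without KO replicate 5, 8, 9 or 10 or WT replicate 3 or 16, all of them males.

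Fdps had r = 0.543 with Sqle (adjusted p = 0.00449) and 0.492 with Insig1 (adjusted p = 0.0145) by the permutation test, and 0.343 with Cyp51, 0.195 with Hmgcs1 and 0.159 with Idi1, which did not pass. Without KO replicate 4, a female, Fdps and Cyp51 passed at r = 0.419 (adjusted p = 0.0386 by the permutation test). Lss had r between 0.046 and 0.153 with the other genes and -0.063 with Fdps, and its adjusted p lay between 0.554 and 0.811 by the permutation test. Over the 30 mice Hmgcs1 counts ranged from 4719 to 11052, Fdps counts from 440 to 1099 and Lss counts from 540 to 1275. Idi1, which passed with Hmgcs1, Cyp51, Sqle and Insig1, had the fewest, from 351 to 873. Counting error equalled 43.3% of the variance of log2 CPM between mice for Fdps, 25.3% for Lss and 21.5% for Cyp51. It equalled 15.5% for Sqle, 15.2% for Idi1, 6.94% for Insig1 and 2.55% for Hmgcs1. The part of counting error in the lower correlations of Fdps and Lss was not tested.

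**Figure D4:**
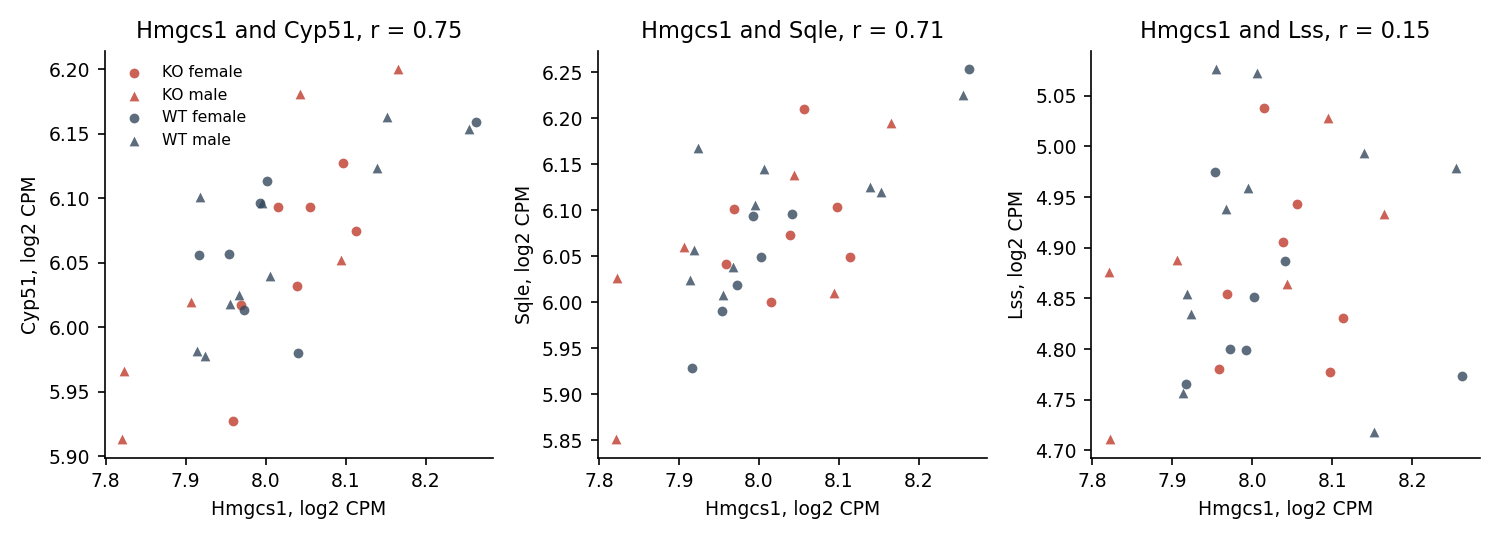
Each point is 1 of 30 mice, with log2 CPM of Hmgcs1 on the horizontal axes and of Cyp51, Sqle and Lss on the vertical axes, red for TIMP2 KO, grey for WT, circles for females and triangles for males. Cyp51 (r = 0.75) and Sqle (r = 0.71) rise with Hmgcs1 and both genotypes lie along the same trend, while for Lss r is 0.15.

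The same mice stood at the ends for several genes. WT replicate 2 had the highest Hmgcs1 (307 CPM), Sqle (76.2), Idi1 (26.3) and Insig1 (87.4) of all 30 mice, and was among the highest 5 mice for 6 of the 7 genes. Its Lss, at 27.3 CPM, was among the lowest 5. KO replicate 9, a male, had the lowest Hmgcs1 (226 CPM), Sqle (57.7) and Cyp51 (60.2), and was among the lowest 5 for 5 genes. Averaged over the 7 genes, WT replicate 2 lay 0.17 above and KO replicate 9 fell by 0.13 below the median mouse on the log2 scale. Both genotypes were found at both ends: the next lowest mice were KO replicate 5, a male, and WT replicate 9, a female, and the next highest were WT replicate 16 and KO replicate 10, both males.

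The spread of the members was compared with that of genes of similar level (within 0.5 log2 CPM). Idi1 had an SD of 0.16 on the log2 scale, above 92.2% of 2374 such genes, Insig1 0.13, above 90.5% of 2221, and Hmgcs1 0.11, above 86.5% of 734. Lss and Sqle were above 69.7% and 69.5%, Cyp51 above 53.5% and Fdps above 37.8%. From the lowest to the highest mouse, Idi1 spanned 1.53-fold and Insig1 1.41-fold, while Cyp51 spanned 1.22-fold.

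To see which other genes followed the 7, each of the 16479 other genes tested was given its mean r to them, as a description over the 30 mice with no test. The median over all these genes was -0.003, and the highest 1% lay above 0.299. Of 15 other cholesterol synthesis enzymes, 8 (53.3%) lay in that highest 1%, among them Msmo1 (0.508), Fdft1 (0.484), Acat2 (0.482), Mvd (0.458), Nsdhl (0.354) and Tm7sf2 (0.327). The other 7 enzymes lay between 0.010 and 0.297, with Ebp the lowest, and Hsd17b7 the highest. Msmo1 thus ranked 2 of all 16479 genes, whereas Dhcr7, the enzyme with an unadjusted p under 0.05 between genotypes, ranked 903.

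The list of cholesterol uptake and transfer held the gene with the highest mean r of all, Stard4 (0.545), which encodes a sterol transfer protein. Stard4 was also the gene closest to Hmgcs1 (r = 0.799), followed by Msmo1 (0.799). None of the 6 genes of SREBP processing lay in the highest 1%, and their mean r lay between -0.041 and 0.110, with Srebf2 at 0.037 and Insig2 at 0.110. None of the 10 genes of fatty acid synthesis did, at -0.154 to 0.279, and none of the 9 genes of cholesterol export and turnover, at -0.238 to 0.219. The 10 genes with the highest mean r were Stard4, Msmo1, C920006O11Rik, Hmgb2, Fdft1, Acat2, Gm4285, Mvd, Gm3693 and Ano10, of which 5 were in the lists of cholesterol genes. Of the marker lists, the 9 oligodendrocyte markers held 1 gene in the highest 1%, Opalin (0.352), with a list median of 0.090, and the 7 other marker lists held none.

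**Figure D5:**
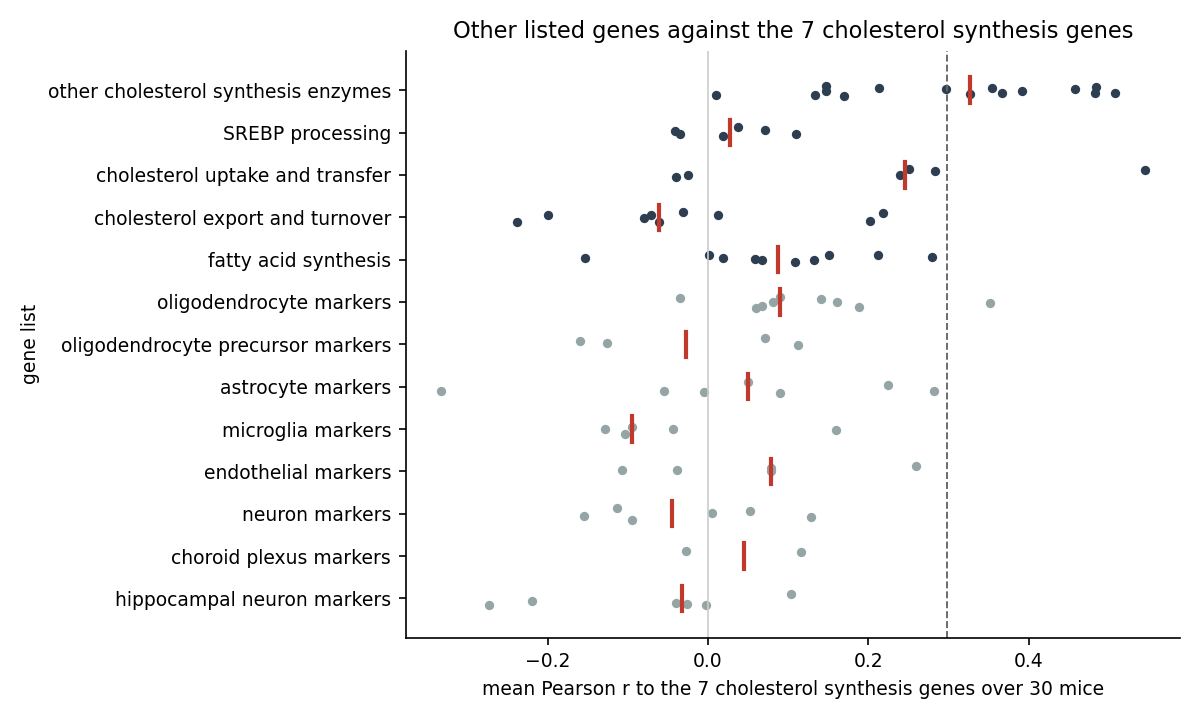
Each point is a gene of the list named on the vertical axis, placed by its mean Pearson r to the 7 cholesterol synthesis genes over 30 mice, with marker lists in grey. Red bars are list medians and the dashed line at 0.299 bounds the highest 1% of all genes, with 8 of 15 other synthesis enzymes to its right.

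The other synthesis enzymes in the highest 1% were also counted within each sex and each genotype. In males alone 7 of the 15 enzymes lay in the highest 1% and in females alone 1, with median mean r of 0.363 and 0.206, and whether the sexes differ was not tested. In TIMP2 KO mice alone there were 7 and in WT mice alone 6. The highest 1% begins at another value of mean r in each subset, and the subsets of 13 to 17 mice give less precise correlations than all 30.

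Of the single members, Sqle was closest to Acat2 (r = 0.792), Hmgcs1 (0.705) and Gm3693 (0.698), and Cyp51 to Hmgcs1 (0.750), Msmo1 (0.748) and Mvd (0.712). Insig1 was closest to Hmgb2 (0.704), Rassf3 (0.662) and Stard10 (0.660), and Idi1 to Plcd4 (0.733), Pdk4 (0.720) and Tprkb (0.700). The genes closest to Fdps were Mrpl57 (0.728), Araf (0.720) and Atp5c1 (0.717), and those closest to Lss were Kmt2e (0.741), Ppp4r3b (0.725) and Utrn (0.718). None of the genes named here for Insig1, Idi1, Fdps or Lss was in a list of cholesterol genes. Among all genes, Hmgcs1 ranked 4557 for Lss, the best rank of any member for that gene, and 3540 for Fdps. For Fdps, Sqle ranked 115 and Insig1 228.

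Tissue makeup and depth were set beside these correlations. Each member was correlated with the mean level of 8 marker lists and with log2 total counts, 63 relations in all. By the permutation test with Benjamini-Hochberg adjustment over the 63, 0 passed, and 8 had an unadjusted p under 0.05. Of these 8, 4 were negative relations of Fdps. The others were Lss and Idi1 with astrocyte markers (r = 0.366 and 0.396), and Lss and Sqle with hippocampal neuron markers (r = 0.384 and -0.429). The strongest of all 8 was Fdps with astrocyte markers, at r = -0.485 and rho = -0.451 (adjusted p = 0.225 and 0.378 by the permutation test), and r = -0.462 without 2 mice. Hmgcs1 had r = 0.323 with oligodendrocyte markers (adjusted p = 0.396 by the permutation test), and 0.151 without 2 mice. With log2 total counts, r lay between -0.286 for Hmgcs1 and 0.323 for Fdps. The number of pairs that passed was 12 with genotype and sex means removed and 13 with genotype, sex and log2 total counts removed, against 12 before. Genotype, sex and 8 surrogate variables were also removed, a setting chosen after seeing the data, which gave a median r of 0.550. There 15 pairs passed, among them 2 of the 6 pairs of Lss (r = 0.397 with Hmgcs1 and 0.428 with Sqle). The test permuted the residuals as 30 free values and ignored the terms removed, so its p-values were too small. These passes therefore cannot be read as a gain over the 12 pairs. The settings with fewer terms removed share this to a lesser degree.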

How the data were processed

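Poly(A) RNA of 30 hippocampi was sequenced in read pairs. The authors deposited whole-number read counts per gene, not normalized. The submitters' processing notes name Trimmomatic 0.36, STAR 2.5.2b and featureCounts of Subread 1.5.2. Columns were matched to samples by title, and 0 columns were left unmatched. Counts were scaled by TMM and tested in edgeR 4.0.16 (quasi-likelihood, Benjamini-Hochberg adjustment, threshold 0.05) with R 4.3.3 after filterByExpr by genotype. Sex by genotype and female vs. male fits used sex and genotype. Correlations used log2 CPM with a prior count of 2 and two-sided permutation tests with 100000 resamples in numpy 2.4.6, with ranks from scipy 1.17.1. RPKM used exon lengths of GENCODE M21, and promoter windows came from RefSeq.

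Alternatives were DESeq2 1.42.0, RLE size factors, no filter or at least 10 counts in every mouse, covariates including surrogate variables (sva 3.50.0), single sexes or genotypes, a prior count of 0.5, and each mouse left out. The 7 genes and all lists were chosen with earlier results of these data known. Beyond the 7, genes named in the genotype comparison were Srebf2, Insig2 and listed genes with an unadjusted p under 0.05 (some genes that this rule names are not reported here), and for likeness the genes with the highest r, by rule. Replicate numbers follow sample order and pair no mice. The authors adjusted for isolation or harvest date, as a significant source of variation, in their network analysis. The labels give no such date, so it was neither adjusted for nor tested, and p-values measure the spread between these mice.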

Additional observations from a re-analysis of the deposited data

Results flagged for a closer look

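Among the WT females, Hmgcs1 of replicate 2 stood apart from the other 6 mice, at 307 CPM with the nearest at 263 CPM. Its gap to the nearest mouse was 0.668 of the range of the 7 mice, above the 95% critical value of Dixon's test. Of 28 groups of 6 to 10 mice tested over the 7 genes, this was the 1 group past its limit, and chance flags about 1 in 20. Without this mouse 10 of 21 pairs passed in place of 12, and the median r of the 10 pairs among Hmgcs1, Cyp51, Sqle, Idi1 and Insig1 was 0.544 in place of 0.606.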

How the results depend on the processing

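None of the 7 genes passed between genotypes under any setting, and no setting that leaves out 1 mouse gave an unadjusted p under 0.127. Genes at an unadjusted p under 0.05 in TIMP2 KO vs. WT numbered 829, 1971 with no filter (more genes tested), 540 in males alone, and 707 to 962 without 1 mouse. At an adjusted p they numbered 9, which fell to 2 for females, to 3 for males and to between 7 and 9 without 1 mouse. Between females and males 1611 genes became 932 in WT alone and 1003 in KO alone, and at an adjusted p 36 became 16, 13 and, by DESeq2, 87.

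Directions near 0 turned, on the log2 scale. With sex and surrogate variables Hmgcs1 was at 0.033, Sqle at 0.0052, Lss at 0.0062, Cyp51 at 0.0043 and Srebf2 at -0.0038. In females alone Hmgcs1 was at 0.013, Sqle at 0.022, Lss at 0.039 and Srebf2 at -0.016. Insig2 was at -0.015 in males alone and Srebf2 at -0.0030 with sex as a covariate. Without 1 mouse Hmgcs1 ran from -0.028 to 0.0026, Sqle from -0.029 to 0.00012, Lss from -0.020 to 0.0074 and Srebf2 from -0.0066 to 0.013. Between females and males, Hmgcs1 was at -0.0023 and Cyp51 at 0.0010 in WT alone, and Sqle at 0.036 in KO alone.

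Pairs that passed numbered 12, with 7 without the 2 mice furthest from the median, 5 in KO, 2 in WT, 3 in females and 5 in males alone (fewer mice), and 10 to 13 without 1 mouse. Pairs of Lss and of Fdps with Idi1 changed sign: Hmgcs1 and Lss (-0.149 in females), Sqle and Lss (-0.106 in females, -0.0063 with genotype and sex means removed, -0.0253 to 0.136 without 1 mouse), Idi1 and Fdps (-0.0233 in KO), Idi1 and Lss (-0.0221 in KO, -0.209 in females), Fdps and Lss (0.0611 in WT, 0.0804 in males, 0.309 with surrogate variables removed) and Lss and Cyp51 (-0.101 in WT). Other synthesis enzymes in the highest 1% numbered 8, with 1 in females alone and 7 to 9 without 1 mouse, in settings added after seeing the data. Where not stated, the cause was not tested. No paired analysis was possible because the replicate numbers carry no pairing. Fdps, Lss and Idi1 had the fewest counts. Relative to the variance between mice, counting error was largest for Fdps (43.3%), Lss (25.3%) and Cyp51 (21.5%), with Idi1 at 15.2%.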
